A study of Mus musculus with 4 samples.

Results

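The genes described here are 10 products of enteroendocrine cells of the gut: the hormone genes Cck, Nts, Sct, Gip, Pyy, Gcg and Sst, and the secretory granule genes Chga, Chgb and Cpe. They were taken by name from 16390 genes on the array, and each of the 10 had 1 probe that carried its current symbol. The study asked how cells that express the kinase Dclk1, a marker of tuft cells (rare chemosensory cells of the epithelium), differ from cells that do not, in intestinal tumors and in normal small intestine. There were 4 samples of sorted cells with 1 array each. Dclk1+ tumor cells were pooled from 7 Dclk1CreERT2/+; ApcMin/+ mice older than 16 weeks, and Dclk1- tumor cells came from 1 Dclk1CreERT2/+; ApcMin/+ mouse of 17 weeks. Dclk1+ normal cells were pooled from 2 Dclk1CreERT2/+ mice, and Dclk1- normal cells came from 1 Dclk1CreERT2/+ mouse, all of 26 weeks and without ApcMin. All mice were male, and all carried CreERT2 at 1 copy of Dclk1, so no sample had 2 unmodified copies. ApcMin is a truncating allele of the Wnt pathway gene Apc, carried in all cells of the mouse, and its tumors are adenomas of the intestine. The protocol states a sort on GFP for the Dclk1+ tumor cells. For the remaining samples the gates are not given in the labels.

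Enteroendocrine cells are scattered hormone-secreting cells of the intestinal epithelium. They form as a secretory lineage from crypt progenitors under the transcription factors Neurog3 and Neurod1, and they store peptides in dense-core granules that are released after a meal. Hormone precursors are cut by prohormone convertases, trimmed by carboxypeptidases and packed with acidic proteins called granins. The hormones differ along the gut, with Cck, Gip and Sct more frequent in the upper small intestine and Nts, Pyy and Gcg more frequent in its lower part.

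Levels are given in the authors' normalised intensity, a linear scale with the array's background subtracted, on which a dim probe has an empty cell (called not listed). Differences are log2 differences between 2 arrays after background correction and quantile normalization, which compress the changes of dim probes. A probe counted as above background where its spot exceeded the mean of the blank spots by 2 SD, and a difference counted where it reached 2-fold. Each group was 1 array, so there is no spread between replicates to test against, and no p-value is given. Between 63.3% and 70.9% of the 23473 probes were above background on the 4 arrays. Dclk1 itself stood at 61.8 in Dclk1+ tumor cells against 9.49 in Dclk1- tumor cells, and at 736 in Dclk1+ normal cells against 179.8 in Dclk1- normal cells. The tuft marker list (10 genes on the array) summed to 17896 in Dclk1+ and 422 in Dclk1- tumor cells, and to 76943 in Dclk1+ and 394 in Dclk1- normal cells.

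Of the 10 enteroendocrine genes, 9 had their highest normalised intensity in Dclk1- normal cells. The share of all genes that did so was not counted. Sct had its highest value in Dclk1+ normal cells. After quantile normalization its log2 level was 11.84 in Dclk1+ and 12.02 in Dclk1- normal cells. The order of these 2 samples thus turns with the scaling. All 10 were above background in Dclk1- normal cells, 8 in Dclk1+ normal cells, 8 in Dclk1- tumor cells and 9 in Dclk1+ tumor cells. In a sample of sorted cells, fewer enteroendocrine cells and less hormone RNA in each cell cannot be told apart.

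**Figure D1:**
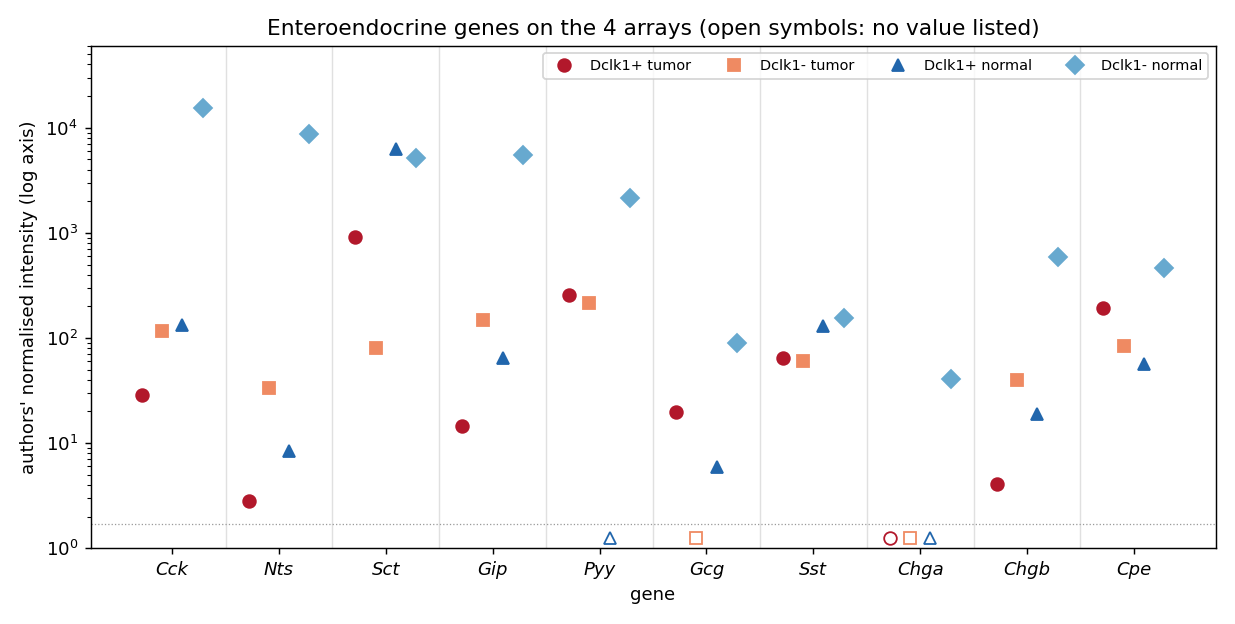
Normalised intensity (log axis) of each of the 10 genes on the 4 arrays; each symbol is 1 array and open symbols at the foot are not listed. The Dclk1- normal array is the highest for every gene but Sct, and Sct stays at 908 in Dclk1+ tumor cells where Cck, Nts and Gip are under 30.

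Cck encodes cholecystokinin, which contracts the gallbladder and stimulates pancreatic enzyme release. It stood at 28.6 in Dclk1+ tumor cells, 115 in Dclk1- tumor cells, 134 in Dclk1+ normal cells and 15348 in Dclk1- normal cells. The Dclk1- normal sample was thus far above the other 3, which lay within 1 order of magnitude of each other. Nts encodes neurotensin, a peptide of the lower small intestine that slows motility and aids fat absorption. Its values were 2.81 in Dclk1+ tumor cells, 33.3 in Dclk1- tumor cells, 8.42 in Dclk1+ normal cells and 8765 in Dclk1- normal cells. The Dclk1+ tumor value of Nts was close to 2.15, the lowest value listed on that array. Gip encodes the glucose-dependent insulinotropic peptide of K cells, an incretin. It was at 14.4 in Dclk1+ tumor cells, 148 in Dclk1- tumor cells, 64.9 in Dclk1+ normal cells and 5518 in Dclk1- normal cells. Cck, Nts and Gip thus shared the sample with the highest value, Dclk1- normal, and the one with the lowest, Dclk1+ tumor.

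Sct encodes secretin, which makes the pancreas release bicarbonate, and its pattern differed from these. It stood at 908 in Dclk1+ tumor cells, 80.8 in Dclk1- tumor cells, 6275 in Dclk1+ normal cells and 5113 in Dclk1- normal cells. Both normal samples were high, and the Dclk1+ tumor sample lay between them and the Dclk1- tumor sample. Pyy, peptide YY of L cells, which slows gut transit and reduces appetite, was at 254 in Dclk1+ tumor cells and 215 in Dclk1- tumor cells. In normal cells Pyy was not listed in Dclk1+ and stood at 2150.1 in Dclk1-. Gcg, whose precursor yields the glucagon-like peptides in L cells, was dim, at 19.6 in Dclk1+ tumor cells, not listed in Dclk1- tumor cells, 5.95 in Dclk1+ normal cells and 89.6 in Dclk1- normal cells. The 2 L cell hormones were therefore both detected in Dclk1+ tumor cells and, at higher values, in Dclk1- normal cells. Pyy was missing from Dclk1+ normal cells and Gcg from Dclk1- tumor cells. Sst encodes somatostatin, the inhibitory hormone of D cells, which enteric neurons also make. Its values were 63.8 in Dclk1+ tumor cells, 60.6 in Dclk1- tumor cells, 131 in Dclk1+ normal cells and 155 in Dclk1- normal cells, the narrowest range of the 9 genes listed on more than 1 array.

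Among the granule genes, Chga, which encodes the granin chromogranin A, was above background in Dclk1- normal cells only, at 41.0, so its probe was a weak marker on these arrays. Chgb, chromogranin B, was at 4.11 in Dclk1+ tumor cells, 40.2 in Dclk1- tumor cells, 19.02 in Dclk1+ normal cells and 592 in Dclk1- normal cells. Its highest and lowest samples were those of Cck, Nts and Gip. The lowest values of Chgb and Nts were near background. For Nts, the order of Dclk1+ tumor and Dclk1+ normal cells turned in 1 of 7 other settings. Cpe encodes carboxypeptidase E, which trims basic residues from cut prohormones and is also found in other secretory cells. It stood at 193 in Dclk1+ tumor cells, 84.3 in Dclk1- tumor cells, 57.1 in Dclk1+ normal cells and 459 in Dclk1- normal cells. Unlike Chgb, Cpe was brighter in Dclk1+ than in Dclk1- tumor cells.

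The 250 bases before the start of 5 of these genes are shown because Cck, Nts, Gip and Chgb had their highest and lowest values in the same samples and Sct did not. Sequences are from RefSeq and read 5′ to 3′ along the gene. Capitals mark 3 motifs searched on both strands: the E-box CANNTG, the core shape of sites of basic helix-loop-helix factors such as Neurod1, the TATA-type run TATAA and the cyclic AMP response element TGACGTCA.
Cck (GRCm38.p6, chr9:121495695-121495944, minus strand): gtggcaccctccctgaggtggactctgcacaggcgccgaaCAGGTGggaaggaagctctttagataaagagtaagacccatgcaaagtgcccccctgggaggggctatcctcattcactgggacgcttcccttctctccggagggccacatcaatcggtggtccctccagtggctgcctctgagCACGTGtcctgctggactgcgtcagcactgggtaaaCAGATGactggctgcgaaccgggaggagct
Nts (GRCm38.p6, chr10:102490419-102490668, minus strand): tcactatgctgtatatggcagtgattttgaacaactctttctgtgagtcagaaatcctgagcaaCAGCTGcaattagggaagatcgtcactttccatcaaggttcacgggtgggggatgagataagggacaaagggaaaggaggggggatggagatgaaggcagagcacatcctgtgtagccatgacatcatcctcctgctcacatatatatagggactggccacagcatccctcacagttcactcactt
Gip (GRCm38.p6, chr11:96024295-96024544, plus strand): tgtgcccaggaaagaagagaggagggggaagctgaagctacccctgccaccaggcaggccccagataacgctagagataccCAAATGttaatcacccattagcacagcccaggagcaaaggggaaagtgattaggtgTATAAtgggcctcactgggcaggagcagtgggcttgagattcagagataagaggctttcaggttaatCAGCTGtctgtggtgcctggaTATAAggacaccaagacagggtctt
Sct (GRCm38.p6, chr7:141279134-141279383, minus strand): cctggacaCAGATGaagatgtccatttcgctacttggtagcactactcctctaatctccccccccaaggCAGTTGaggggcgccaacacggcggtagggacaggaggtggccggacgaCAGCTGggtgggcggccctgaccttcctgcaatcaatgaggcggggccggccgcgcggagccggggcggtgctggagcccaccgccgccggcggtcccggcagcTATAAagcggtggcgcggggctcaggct
Chgb (GRCm38.p6, chr2:132781392-132781641, plus strand): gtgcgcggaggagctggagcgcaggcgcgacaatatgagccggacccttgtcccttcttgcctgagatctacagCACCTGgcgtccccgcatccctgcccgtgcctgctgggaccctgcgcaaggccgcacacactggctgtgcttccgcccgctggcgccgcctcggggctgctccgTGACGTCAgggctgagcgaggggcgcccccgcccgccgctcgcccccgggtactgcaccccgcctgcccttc

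The promoter table matched 9 of the 10 genes, all but Cpe. An E-box was found in 9 of these 9 windows, against 66.2% of the 27025 windows of all genes. TATAA was found in 4 of 9, against 23.4% of all windows, and lay 28 to 24 bases before the start in Sct and 25 to 21 bases before it in Gip. TGACGTCA was found in 2 of 9, Sst and Chgb, against 1.56% of all windows. The GC box GGGCGG, also searched on both strands and not capitalised, was in 3 of 9 windows (Sct, Chga and Chgb), against 32.7% of all. Sct held 3 E-boxes, as did Cck, while Nts and Chgb held 1 each. No match overlapped another in the printed windows, and a match is a run of letters, not a shown site.

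In normal epithelium the enteroendocrine genes were lower in Dclk1+ than in Dclk1- cells, apart from Sct and Sst, which were close to level. Of the 10 genes, 7 were at least 2-fold lower and 0 at least 2-fold higher, where 5.92% of all 12844 genes above background were 2-fold lower and 5.66% 2-fold higher. At 4-fold, 6 were lower and 0 higher, against 2.16% and 1.61% of all genes. The median log2 difference was -2.53, against 0.01 over all genes. Nts had the largest log2 difference, at -6.95, followed by Cck at -6.54, Gip at -5.50 and Pyy at -5.02. Pyy was not above background in Dclk1+ normal cells, which made it at least 31.2-fold lower there. In the authors' values, which lack the compression of dim signals, Cck was 115-fold and Gip 85.1-fold lower in Dclk1+ cells. The granule genes Chgb (-2.93) and Cpe (-2.14) were lower by less, and Gcg stood at -1.10.

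Sct and Sst did not take part in this difference. Sct was at -0.18 on the log2 scale, and in the authors' values it was 1.23-fold brighter in Dclk1+ cells, so its direction depends on how the arrays are scaled. Sst was at -0.29. Chga, not above background in Dclk1+ cells, was at least 1.52-fold lower, which the dim signal of 41.0 in Dclk1- cells limits.

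Several other marker lists moved with the hormones in this pair, though not all. Goblet markers (7 genes on the array, all above background on both arrays) summed to 8039.5 in Dclk1+ and 181171 in Dclk1- normal cells. Paneth markers (4 genes) summed to 157 in Dclk1+ and 4704 in Dclk1- normal cells. Of the 8 enterocyte markers 5 were 2-fold lower and 1 was 2-fold higher. Their sum went the other way, at 66884 in Dclk1+ and 52554 in Dclk1- normal cells, and Fabp1 made most of it in Dclk1+ cells. Markers of the lower small intestine (8 genes, with Osr2 not listed) summed to 6064 in Dclk1+ and 57724 in Dclk1- normal cells. Markers of its upper part (7 genes) summed to 65394 in Dclk1+ and 28409.7 in Dclk1- normal cells, of which Fabp1 made 63956 in Dclk1+ and 14387 in Dclk1- cells. The part of these in the hormone differences was not tested.

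In tumors the same comparison gave differences in both directions, most of them under 2-fold on the log2 scale and larger in the authors' values. Dclk1+ tumor cells had 1 of 9 enteroendocrine genes above background higher by 2-fold or more (1.76% of all 12197 genes) and 2 lower (2.13% of all genes). At 4-fold, 1 was higher and 0 were lower, against 0.435% and 0.287% of all genes. The median was -0.05, against 0.01 over all genes. Sct was the higher gene, with a log2 difference of 2.67 and, in the authors' values, 11.2-fold more signal in Dclk1+ cells. Gip (-1.48) and Cck (-1.03) were the lower genes. In the authors' values Gip was 10.3-fold and Cck 4.03-fold lower in Dclk1+ cells.

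The other genes stayed under 2-fold on the log2 scale. Nts was at -0.58 and Chgb at -0.65, and both were dim in tumors, so that the same arrays gave 11.8-fold and 9.79-fold lower signals in Dclk1+ cells in the authors' values. Cpe was at 0.66, or 2.29-fold brighter in Dclk1+ cells in the authors' values. Pyy (0.01) and Sst (-0.05) were level, and Gcg was higher in Dclk1+ cells by at least 1.22-fold. Goblet markers summed to 22891 in Dclk1+ and 43466 in Dclk1- tumor cells, a smaller gap than in normal cells, and lower small intestine markers to 4769 in Dclk1+ and 22663 in Dclk1- tumor cells, and their part in these differences was not tested.

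**Figure D2:**
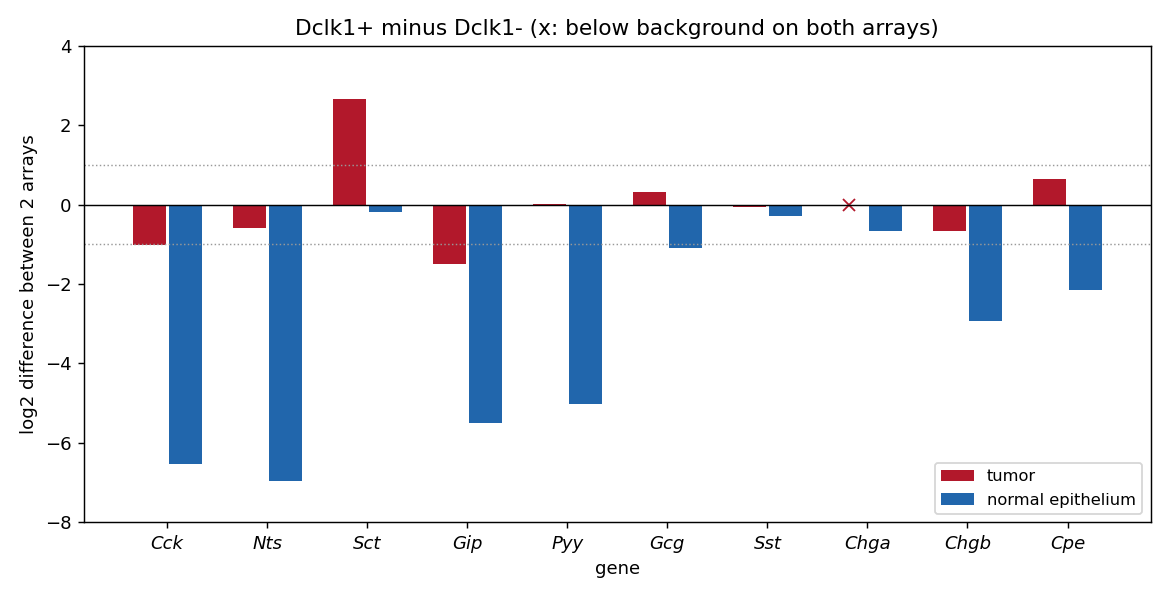
Log2 difference of Dclk1+ minus Dclk1- cells (vertical axis) for each gene, in tumor (left bar) and in normal epithelium (right bar); dotted lines mark 2-fold and a cross marks a gene below background on both arrays. Bars reach -6.95 in normal epithelium for Nts, while in tumor Sct stands at 2.67 and no gene is below -1.48.

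The tumor and the normal Dclk1 comparison use separate arrays. Subtracting the normal log2 difference from the tumor one gave values at least 2-fold positive for 8 of the 10 genes and at least 2-fold negative for 0, where 4.42% of all 13466 genes were 2-fold positive and 4.40% negative. The median was 2.82, against -0.01 over all genes. Among genes above background on all 4 arrays, Nts had 6.37, Cck 5.51, Gip 4.02, Sct 2.85, Cpe 2.80, Chgb 2.28 and Sst 0.24. The fitted values of Pyy (5.03), Gcg (1.43) and Chga (0.62) each rest on at least 1 array where the probe was not above background. They are therefore not exact and have no rank among the others. With 1 array in each group, this difference between differences could not be tested.

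Between tumor and normal samples of Dclk1- cells, all 10 genes were lower in tumor, 8 of them by 2-fold or more and 6 by 4-fold or more. Over all 12340 genes, 5.24% were 2-fold lower and 5.83% 2-fold higher, while 1.30% were 4-fold lower and 1.17% 4-fold higher. The median was -2.66, against -0.02 over all genes. Cck (-6.46) and Nts (-6.45) led, followed by Sct (-5.10) and Gip (-4.64). Sct was 63.3-fold and Pyy 9.99-fold lower in Dclk1- tumor cells in the authors' values, while on the log2 scale Pyy was at -2.82, Chgb at -2.51 and Cpe at -1.71. Gcg was at least 2.17-fold lower and Chga at least 1.49-fold lower in tumor, where neither was above background, and Sst stood at -0.72.

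Between tumor and normal samples of Dclk1+ cells the genes divided. In tumor 2 of 9 genes above background were higher by 2-fold or more and 1 was lower, where 4.27% of all 12869 genes were higher and 4.20% lower. At 4-fold 1 was higher and 1 lower, against 1.17% and 0.420% of all genes. The median was -0.23, against -0.03 over all genes. Pyy was at least 4.45-fold higher in Dclk1+ tumor cells, and Cpe was at 1.08. Sct was the lower gene, at -2.25, or 6.91-fold lower in tumor in the authors' values. Cck (-0.95), Gip (-0.62), Chgb (-0.23) and Nts (-0.08) were under 2-fold on the log2 scale. In the authors' values Cck was 4.67-fold, Gip 4.51-fold and Chgb 4.63-fold lower in tumor. Sst was at -0.49 and Gcg at 0.27. These comparisons of tumor with normal share arrays with the comparisons above.

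Age, ApcMin and array set differed between tumor and normal samples, as did the number of pooled mice for Dclk1+ cells (7 in tumor and 2 in normal), and their effects cannot be told apart. Dclk1+ and Dclk1- cells also differed in the number of mice (7 against 1 in tumor, 2 against 1 in normal), and in tumor in the stated age. In those comparisons mouse and pool cannot be told apart from Dclk1 status. Epithelial markers (5 genes on the array) summed to 14289 in Dclk1+ and 9396 in Dclk1- tumor cells, and to 46080.4 in Dclk1+ and 35972 in Dclk1- normal cells. Myeloid markers (7 genes, with Itgam not listed) summed to 1204 in Dclk1+ and 2573 in Dclk1- tumor cells, and to 1359 in Dclk1+ and 453 in Dclk1- normal cells. Of 6 above background in Dclk1- cells, 3 were at least 2-fold higher in tumor and 0 lower. Fibroblast and endothelium markers (9 genes) summed to 221 in Dclk1+ and 380 in Dclk1- tumor cells. In normal cells they summed to 62.6 in Dclk1+ and 67.7 in Dclk1-. Of 7 above background in Dclk1- cells, 1 was at least 2-fold higher in tumor and 0 lower. By sign alone, 5 were higher and 2 lower, with a median of 0.73. Neural and glial markers (10 genes on the array) summed to 578 in Dclk1+ tumor cells against 159 in Dclk1+ normal cells. Uchl1 and S100b made most of that tumor sum. Of 6 above background, 2 were at least 2-fold higher in tumor and 0 at least 2-fold lower. By sign alone, 3 were higher and 3 lower, with a median of -0.002. In Dclk1- cells they summed to 291 in tumor against 143 in normal, with 1 of 5 higher and 0 lower, and Elavl4, Ret and Chrna3 were not listed on any of the 4 arrays. Goblet markers summed to 43466 in Dclk1- tumor cells against 181171 in Dclk1- normal cells. Of the 7, 4 were at least 2-fold lower in tumor, with a median of -1.71. Enterocyte markers summed to 16191 in Dclk1- tumor cells against 52554 in Dclk1- normal cells. All 8 were lower, 5 of them by 2-fold or more, with a median of -1.92. Paneth markers went the other way, at 20917 in Dclk1- tumor cells against 4704 in Dclk1- normal cells. All 4 were higher, 2 of them by 2-fold or more, with a median of 1.72. In Dclk1+ cells 3 of 7 goblet and 3 of 4 Paneth markers were at least 2-fold higher in tumor. Of the 8 enterocyte markers 1 was at least 2-fold lower. Over all genes 4.27% were 2-fold higher and 4.20% lower in Dclk1+ cells, and 5.83% higher and 5.24% lower in Dclk1- cells. By sign alone, 6 of 7 goblet and 4 of 4 Paneth markers were higher in Dclk1+ tumor cells, and 7 of 8 enterocyte markers were lower. The part of all these in the hormone differences was not tested.

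**Figure D3:**
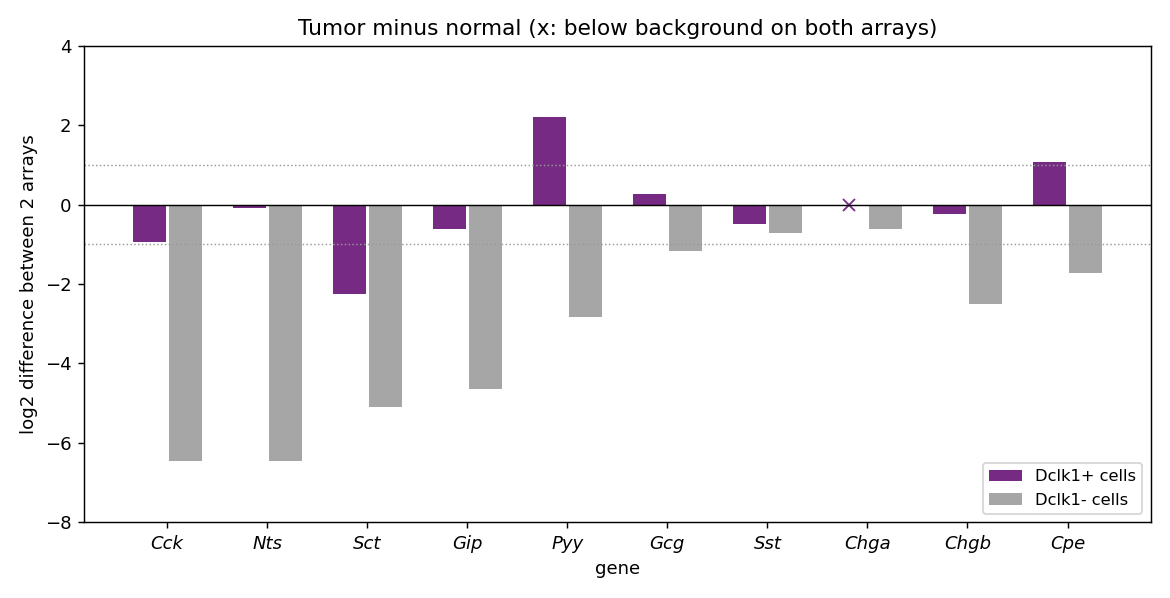
Log2 difference of tumor minus normal samples (vertical axis) for each gene, in Dclk1+ cells (left bar) and Dclk1- cells (right bar); dotted lines mark 2-fold and a cross marks a gene below background on both arrays. All 10 bars of Dclk1- cells are below 0, with Cck at -6.46, whereas in Dclk1+ cells Pyy, Cpe (1.08) and Gcg (0.27) are above it. The Pyy bar (2.21) is a fitted value against a normal array where its probe was not above background.

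The wider hormone pathway was read from 5 lists, whose counts stand against the shares of all genes: 5.92% lower and 5.66% higher in Dclk1+ normal cells, and 2.13% lower and 1.76% higher in Dclk1+ tumor cells. For tumor against normal the shares were 4.20% lower and 4.27% higher in Dclk1+ cells, and 5.24% lower and 5.83% higher in Dclk1- cells. Among other hormones and serotonin synthesis genes, 2 of 8 above background (against 5.92% of all genes) were 2-fold lower and 0 higher in Dclk1+ than in Dclk1- normal cells, with a list median of -0.25. These were Tph1, the tryptophan hydroxylase of serotonin-making enterochromaffin cells, at -2.68 (29.1 in Dclk1+ against 543 in Dclk1- normal cells), and Ghrl, which encodes ghrelin, at -1.35. In tumors 0 of 8 differed 2-fold between Dclk1+ and Dclk1- cells, with a range of -0.26 to 0.16. Tph1 was dim on both tumor arrays, at 5.24 in Dclk1+ and 4.42 in Dclk1- cells. Between tumor and normal Dclk1- cells Tph1 was at -3.02 and Ghrl at -1.33.

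Prohormone processing and granule genes were near the share of all genes. Of 20 above background in the normal pair, 1 (5.0%, against 5.92% of all genes) was 2-fold lower and 0 were higher in Dclk1+ cells, with a list median of -0.01, and Resp18, a granule protein, was the one at -1.55. Pcsk1, the main convertase of these hormones, was dim, at 2.48 in Dclk1+ and 3.14 in Dclk1- normal cells and not listed in the tumor samples, so its probe says little. In tumors 0 of 14 differed 2-fold. Rab3d, a small GTPase of secretory granules that exocrine and other secretory cells also use, was higher in tumor in both cell types, at 1.77 in Dclk1+ and 1.59 in Dclk1- cells, and Resp18 was at least 3.14-fold lower in Dclk1- tumor than in Dclk1- normal cells.

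Transcription factors of the lineage were mostly near background: of 15 on the array, 6 were above it in the normal pair and 7 in the tumor pair. Neurod1, which acts after Neurog3 in endocrine differentiation, was not listed in Dclk1+ tumor cells and stood at 16.0 in Dclk1- tumor cells, 8.42 in Dclk1+ normal cells and 349 in Dclk1- normal cells. Its log2 difference was -2.48 for Dclk1+ against Dclk1- normal cells and -2.27 for tumor against normal Dclk1- cells, and it was the 1 factor of the list that reached 2-fold in either. Neurog3, the factor of endocrine progenitors, was at 5.21 in the Dclk1+ tumor sample and 29.7 in Dclk1- tumor cells, and at 2.57 in Dclk1+ and 46.1 in Dclk1- normal cells, higher in the Dclk1- sample of each pair. Its log2 difference was -0.48 in tumor, and it was at least 1.60-fold lower in Dclk1+ normal cells, where it was not above background.

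Among nutrient sensors and channels, 3 of 13 (23.1%, against 5.92% of all genes) were 2-fold lower in Dclk1+ normal cells, and 1 (7.69%, against 5.66%) was higher. Slc5a1, the sodium-glucose transporter that enterocytes also carry, was at -3.44, the fatty acid receptor Ffar4 at -1.46 and Ffar2 at -1.02. Ffar3 was at the 2-fold limit on the other side (1.00), with 87.6 in Dclk1+ and 5.33 in Dclk1- normal cells. In tumors Slc5a1 (-1.75) and Ffar2 (-1.19) were lower in Dclk1+ cells, 2 of 8 genes (against 2.13% of all genes), and 0 were higher. Between tumor and normal samples Ffar4 was at 1.03 in Dclk1+ cells and Slc5a1 at -1.59 in Dclk1- cells.

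Receptors of the 7 hormones were largely undetected, with 6 of 18 above background on each array. None of them differed 2-fold between Dclk1+ and Dclk1- cells, of 6 in tumor (range -0.31 to 0.06) and 7 in normal epithelium (range -0.45 to 0.37). Npy2r, the receptor of the shortened form of peptide YY, stood at 225 in Dclk1+ tumor and 243 in Dclk1- tumor cells and was not listed in either normal sample. It was thus at least 3.99-fold higher in Dclk1+ tumor and at least 4.90-fold higher in Dclk1- tumor cells. Gipr, the receptor of Gip, was at -1.18 for tumor against normal Dclk1+ cells (44.5 in tumor and 212 in normal).

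**Figure D4:**
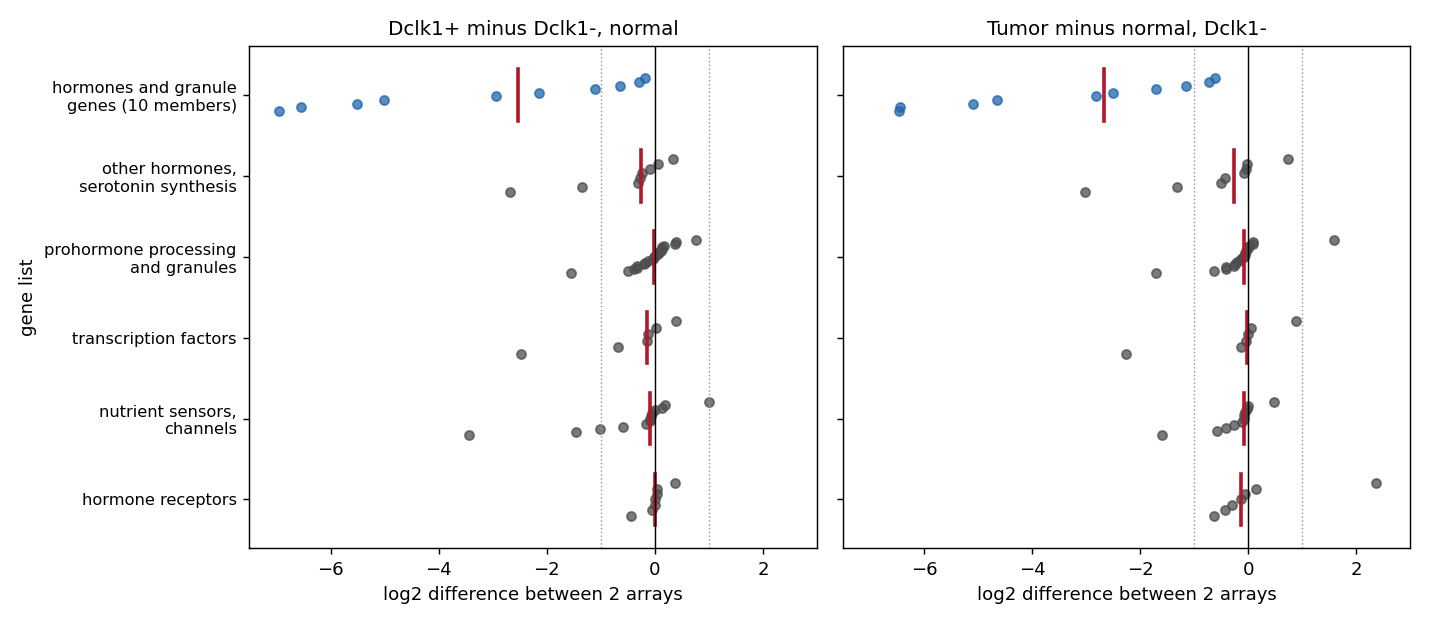
Log2 differences (horizontal axis) of the genes above background in 6 lists, each point 1 gene and each red bar the list median, for Dclk1+ minus Dclk1- normal cells (left) and tumor minus normal Dclk1- cells (right). The 10 hormone and granule genes have medians of -2.53 and -2.66, while the medians of the other 5 lists lie between -0.26 and 0.01.

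The genes whose 4 log2 values, each centred on its mean, were nearest to those of Cck among 13465 genes were Clca1 (Euclidean distance 0.31), Nts (0.61), Gip (1.34), Smarcd3 (1.38) and Ada (1.41). Clca1, a secreted product of goblet cells, stood at 74.5 in the Dclk1+ tumor sample and 260.02 in Dclk1- tumor cells, and at 229 in Dclk1+ and 24890.5 in Dclk1- normal cells. Of the other enteroendocrine genes, Chgb ranked 63, Pyy 81, Cpe 346, Gcg 623 and Sct 694 by nearness to Cck. Chga (1020) and Sst (1067) were farther from it than Sct. The genes nearest to Sct were farther away: Parp14 (1.63), Tstd3 (1.89), Vil1 (1.94), Psmb9 (2.02) and Rsad2 (2.10). Vil1, the actin bundler villin of microvilli, was at 3674 in the Dclk1+ tumor sample and 1682 in Dclk1- tumor cells, and at 19096 in Dclk1+ and 12106 in Dclk1- normal cells, and among the enteroendocrine genes the one nearest to Sct was Sst, at rank 878. With only 4 arrays these distances describe this set of samples. They also grow with the size of a gene's differences, not only with their order. Chga, dim and above background in Dclk1- normal cells only, thus lay far from Cck although both were highest there.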

How the data were processed

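RNA of 4 sorted cell samples was hybridised to 1-colour arrays (Cy5). Per the file headers, the scanner files hold the median intensity of each spot, joined from scans at 3 gains, with nothing subtracted. The intensity values of the authors' deposited series table are straight lines of the spot values: a constant close to the blank mean was subtracted and the median of the listed probes set to about 25, and the table's scale is not stated in the labels. Spots were corrected with normexp (limma 3.58.1, R 4.3.3; offset 50), control and flagged spots left out, and arrays quantile normalized on the log2 scale. Probes took names from the platform table, updated with GRCm38.p6 RefSeq names. 229 genes had several probes, of which the brightest was used. All 10 genes are named; genes of the other lists are named where 2-fold apart (at most 6 a list and comparison), with the 5 nearest to Cck and to Sct. Some further genes near background (Pcsk1, Neurog3) were named after their values were seen. A probe below background on 1 array gives a bound against the lowest probe above background there. The pipeline was tested on simulated data. Genes and lists were chosen with earlier results of these data known. The number of arrays limits the precision.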

Additional observations from a re-analysis of the deposited data

Results flagged for a closer look

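For 4 of the 10 genes the Dclk1+ minus Dclk1- difference had opposite signs in tumor and in normal epithelium and the 2 differences were at least 2-fold apart, which was not tested, since each group is 1 array. Whatever their signs, 4.42% of all 13466 genes had a tumor difference at least 2-fold above the normal one. The share of all genes that also had opposite signs was not counted, so the 4 have no such share beside them. For Sct the tumor difference exceeded the normal one by 2.85 on the log2 scale (2.67 in tumor and -0.18 in normal). For Cpe it was 2.80 (0.66 and -2.14). For Pyy the fitted gap was 5.03 (0.01 and -5.02), with Pyy not above background in Dclk1+ normal cells, so that its size is not exact. For Gcg it was 1.43 (0.33 and -1.10), likewise not exact, with Gcg not above background in Dclk1- tumor cells. The signs of Pyy in tumor and of Sct in normal epithelium turned in 2 of 7 alternative settings each. The mean of all probes, 1 of the 7, could not turn them, because each gene had 1 probe.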

How the results depend on the processing

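No paired analysis was possible because each group is 1 array. Of 266 differences of the 10 genes recomputed under 7 other settings, 231 kept their side of 2-fold and 8 changed sign, and none of the 8 was 2-fold before. The mean of all probes, 1 of the 7 settings, could change nothing, because each of the 10 genes had 1 probe. Its values are counted among the 231, and it is also 1 of the 10 alternatives below. In Dclk1+ over Dclk1- tumor cells 1 gene was higher and 2 were lower. An offset of 16 gave 4 lower, plain subtraction of the blank mean 3 higher and 4 lower, the authors' values 3 higher and 4 lower, and a 4-fold threshold 0 lower. In tumor over normal Dclk1+ cells 2 genes were higher and 1 was lower. An offset of 16 gave 3 lower, plain subtraction 5 lower, the authors' values 6 lower, and local background subtraction and a 4-fold threshold 1 higher each. Counts in normal epithelium stayed between 6 and 8 lower and in Dclk1- cells between 6 and 10 lower, with 0 higher in all 10 alternatives.

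The share of all genes that passes 2-fold depends on the same choices. In Dclk1+ over Dclk1- normal cells 727 genes were higher and 760 lower, against 2598 and 2588 after plain subtraction, and 2996 and 2058 (59.3% higher, against 48.9%) in the authors' values. In tumor cells 215 were higher and 260 lower, against 406 and 565 with an offset of 16, 1681 and 1940 with plain subtraction, 2219 and 1366 (61.9% higher) with the authors' values and 388 and 363 with the local background subtracted, and 24.5% of calls were higher with median scaling (143 and 440) against 45.3%. In tumor over normal, Dclk1+ cells had 549 higher and 540 lower, against 950 and 886, 2369 and 2869, and 1743 and 3494 (33.3% higher, against 50.4%) with an offset of 16, plain subtraction and the authors' values. Dclk1- cells had 719 and 647, against 1157 and 1007, 2499 and 2696, and 1804 and 3608 (33.3% higher, against 52.6%) in the same order. With the authors' values the median of all genes for Dclk1+ over Dclk1- was 0.27 in normal and 0.35 in tumor, against 0.01 in both before. For tumor over normal it was -0.40 in Dclk1+ and -0.50 in Dclk1- cells, against -0.03 and -0.02. Dim probes (Gcg, Chga, Nts outside Dclk1- normal cells) limit what these arrays show.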

Other observations

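Npy, a neuropeptide of the same family as Pyy, stood at 36.9 in Dclk1+ tumor and 38.9 in Dclk1- tumor cells and was not listed in either normal sample. Uchl1, a ubiquitin hydrolase of neurons and endocrine cells, was at 360 in the Dclk1+ tumor sample and 224 in Dclk1- tumor cells, and at 16.9 in Dclk1+ and 27.9 in Dclk1- normal cells. S100b, a calcium-binding protein of glia, was at 148 in the Dclk1+ tumor sample and 26.3 in Dclk1- tumor cells, and at 21.1 in Dclk1+ and 22.0 in Dclk1- normal cells. Of the 6 neural and glial markers above background in Dclk1+ cells, 3 were higher and 3 lower in tumor, with a median of -0.002.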
